A study of Mus musculus with 12 samples.

Results

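Nucleolar ribosome biogenesis factors are the proteins that transcribe, modify, fold and cut ribosomal RNA in the nucleolus. They were taken here as the genes whose symbol begins with Nop, Utp, Nol or Rrp followed by a number, with Imp3, Imp4 and 18 further named genes such as Ncl, Npm1, Fbl, Dkc1 and Bop1. The rule used symbols and no measured value, and 57 of the 17419 genes in the table met it. By role, 2 act with RNA polymerase I, 3 belong to box C/D and 4 to box H/ACA small nucleolar ribonucleoproteins (snoRNPs), 4 are abundant nucleolar proteins and chaperones, 25 act in the small subunit pathway and 15 in the large subunit pathway. The remaining 4 (Nol3, Nol4, Nol4l and Nol8) only share the name pattern or have a less settled role.

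RNA came from wild-type NIH-3T3 cells, an established line of mouse fibroblasts. Cells in 5 groups received 4-thiouridine (4sU), a uridine analogue that enters newly made RNA, at 800 µM for 15, 30, 60, 90 or 120 min, and the no4sU group received none. Every group had 2 libraries, A and B, and all RNA was treated with iodoacetamide, which makes incorporated 4sU read as C (SLAM-seq). From these conversions the authors estimated the new-to-total ratio (NTR), which is the part of the RNA of a gene that was made during labelling, and the series title asks how the length of labelling biases such quantification.

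In ribosome production, RNA polymerase I transcribes a long precursor from the ribosomal DNA, and small nucleolar RNAs guide its methylation and pseudouridylation. The small subunit processome, built from UTP complexes and the U3 snoRNP, folds and cuts the precursor on the small subunit side, and a separate set of factors matures the large subunit. Growing fibroblasts spend much of their transcription on this pathway, and many of its genes are known targets of Myc.

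Library totals were between 9917026 and 13739380 reads. The fibroblast markers Col1a1, Col1a2, Vim, Fn1, Pdgfrb and Thy1 lay between 101 and 8327 CPM (reads of a gene scaled to a common library total) in the 12 libraries, while Krt8, Cdh1, Ptprc and Pecam1 stayed between 0 and 0.388 CPM, Cdh5 between 0.661 and 1.55 CPM and Tubb3 between 5.99 and 9.40 CPM. The no4sU replicates were further apart than the others. The log2 ratio of B to A had an SD over the factors of 0.14 in no4sU, and of 0.07 to 0.08 in the labelled groups. Nothing in the labels says whether A and B were separate cultures, so p-values measure only the spread between these libraries. CPM is relative to the total of a library, and less RNA per cell cannot be told apart from fewer cells or from a change in the rest of the RNA.

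Of the 57 factors, 54 had a mean count of at least 100 and were used for the NTR, and 55 had enough reads for the count tests. Nol3, known as an apoptosis repressor and not as a ribosome factor, had a mean count of 1.50, and Nol4l had 0.592. Nol4 had 40.7 and was tested for its level only. Per kilobase of the deposited gene length, the mean level was highest for the histone chaperone Npm1, at 1317 CPM per kb, followed by nucleolin (Ncl) at 281, Nhp2 at 137 and Nop56 at 133. Among the 54, the lowest levels per kilobase were 2.33 for Utp14b, 5.30 for Utp23 and 5.73 for Nol8.

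The new share of RNA grew with labelling to about the same extent as that of other genes. It differed widely between some factors that work in one complex. The median NTR over the 54 factors began at 1.03% ± 0.470 (SD, n = 2) after 15 min of labelling and went through 5.51% ± 0.141 (30 min), 15.9% ± 0.651 (60 min) and 25.7% ± 0.725 (90 min) to 38.1% ± 1.28 after 120 min. Over all 9065 genes that averaged at least 100 reads it was 1.01%, 5.21%, 15.5%, 24.4% and 35.4% for the same durations. At 120 min 31 of the 54 factors lay above the median of all genes, 6 lay below the lower quartile of all genes and 13 above the upper. The quartiles of the factors were 30.4% and 54.4%, closer together than the 20.5% and 60.3% of all genes. No test was made of these medians, since the factors were chosen with results of these data known.

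The highest NTR at 120 min was that of Utp14b, with 100.0% in A and 96.8% in B. Utp14b is a retrogene copy of Utp14a and lies within Acsl3 on the same strand (chr1:78658038-78671512 in GENCODE M21, GRCm38), so that reads of these genes may be divided between them and its values are uncertain. Utp23, a small subunit processome protein, followed with 90.0% and 90.4%, Utp15 with 78.8% and 79.9%, and the nucleolar GTPase Gnl3 (nucleostemin) with 78.7% and 76.8%. Nol8 reached 72.86% and 72.01%. In each of these 5 genes both libraries lay above 60.3%, the upper quartile of all genes.

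At the other end stood Nol7 with 14.1% and 13.1%, Bop1 with 15.7% and 15.5%, and Npm1 with 16.6% and 16.4%. Nop10, the smallest protein of the H/ACA snoRNP, had 17.0% and 17.9%, and Rrp1, a large subunit factor, 18.0% and 17.9%. Both libraries of each of these 5 genes lay below 20.5%, the lower quartile of all genes. Npm1 has many processed pseudogenes, and with the counting tool not known its values carry that uncertainty.

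**Figure D1:**
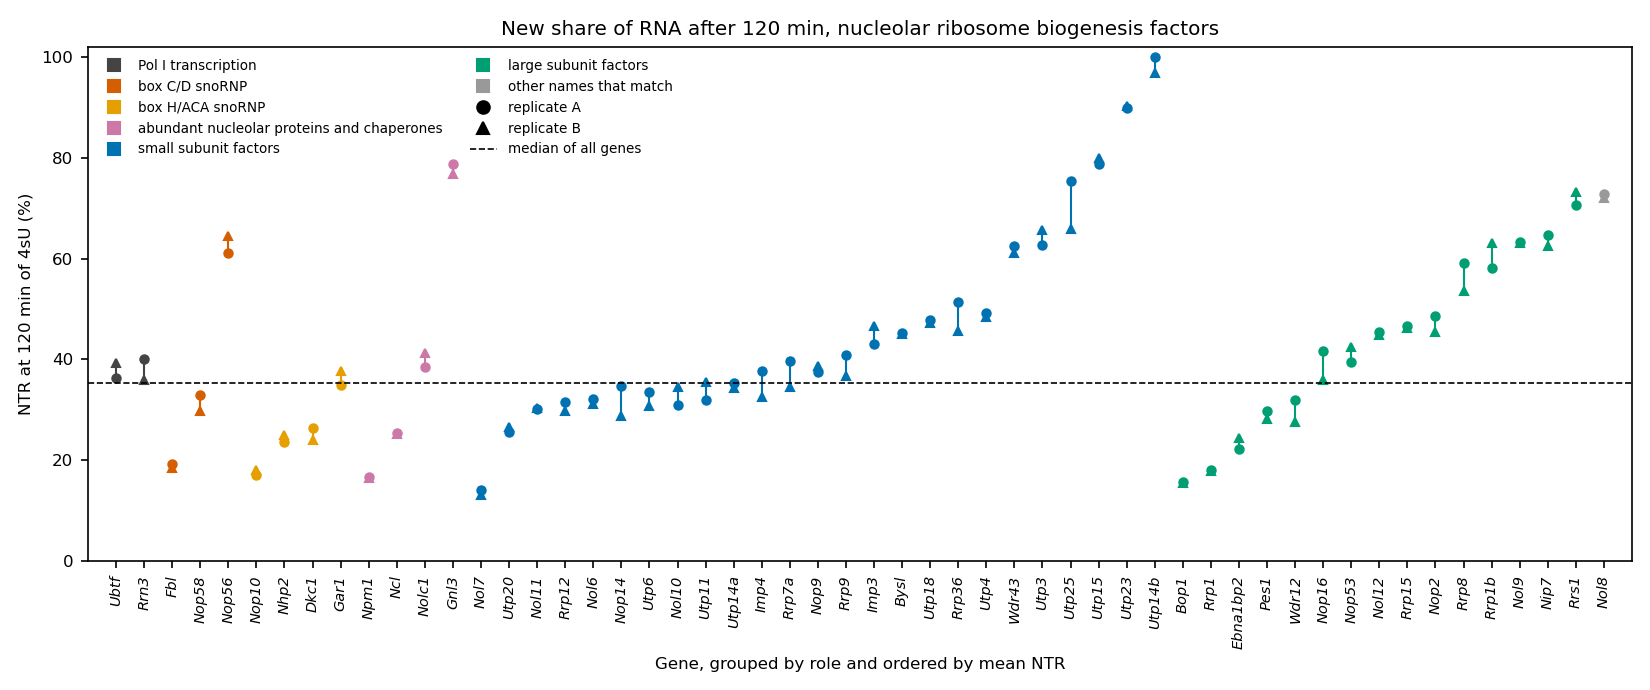
NTR in percent after 120 min of 4sU in the 54 factors with a mean count of at least 100, grouped by role (colour) and ordered by mean within a role. Circles are replicate A, triangles replicate B, the line joins them, and the dashed line is the median of all genes, 35.4%. The small subunit factors span from Nol7 at 13.6% to Utp14b at 98.4%, and 3 of the 4 box H/ACA factors lie below the dashed line.

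Some partners of one complex differed in their new share by more than their libraries did, while others overlapped. How often other pairs of genes differ as much was not examined. In the box C/D snoRNP, which carries out 2′-O-methylation, the methyltransferase Fbl had an NTR at 120 min of 19.2% and 18.4%, the scaffold protein Nop58 33.0% and 29.8%, and the scaffold protein Nop56 61.1% and 64.5%. The 3 genes did not overlap, and Nop56 was above both partners in each of the 10 labelled libraries. In the box H/ACA snoRNP, which makes pseudouridine, the values were closer: 17.5% ± 0.658 for Nop10, 24.3% ± 1.10 for Nhp2, 25.2% ± 1.63 for the pseudouridine synthase Dkc1 and 36.3% ± 1.92 for Gar1. Nhp2 and Dkc1 overlapped.

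In the PeBoW complex of the large subunit pathway, Bop1 (15.6% ± 0.0919) lay below Pes1 (28.9% ± 1.10) and Wdr12 (29.8% ± 3.01), and the latter pair overlapped. The polymerase I factors overlapped, with 37.9% ± 2.97 for Rrn3, which brings the polymerase to the promoter, and 37.8% ± 2.14 for Ubtf, which binds the ribosomal DNA. Among the abundant proteins, Ncl had 25.3% ± 0.0919 and the snoRNP chaperone Nolc1 39.9% ± 1.99, far below Gnl3 at 77.7% ± 1.41. By role, the median was 24.8% over the 4 H/ACA factors, 38.1% over the 25 small subunit factors and 45.1% over the 15 large subunit factors.

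The time course set apart genes that ended at the same share. Nop56 and Wdr43, a small subunit protein of the UtpA complex, reached 62.8% ± 2.39 and 61.8% ± 1.05 at 120 min. At 30 min Nop56 was already at 19.6% in A and 21.3% in B, and Wdr43 at 5.62% and 6.42%. The authors' 90% intervals of these 30 min values did not overlap. They ran from 18.1% to 21.3% and from 19.5% to 23.2% for Nop56, and from 4.56% to 6.92% and from 5.19% to 7.95% for Wdr43. Gnl3 was near Nop56, with 22.1% and 24.3% at 30 min, and Utp15 lay between, with 11.01% and 11.16%.

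**Figure D2:**
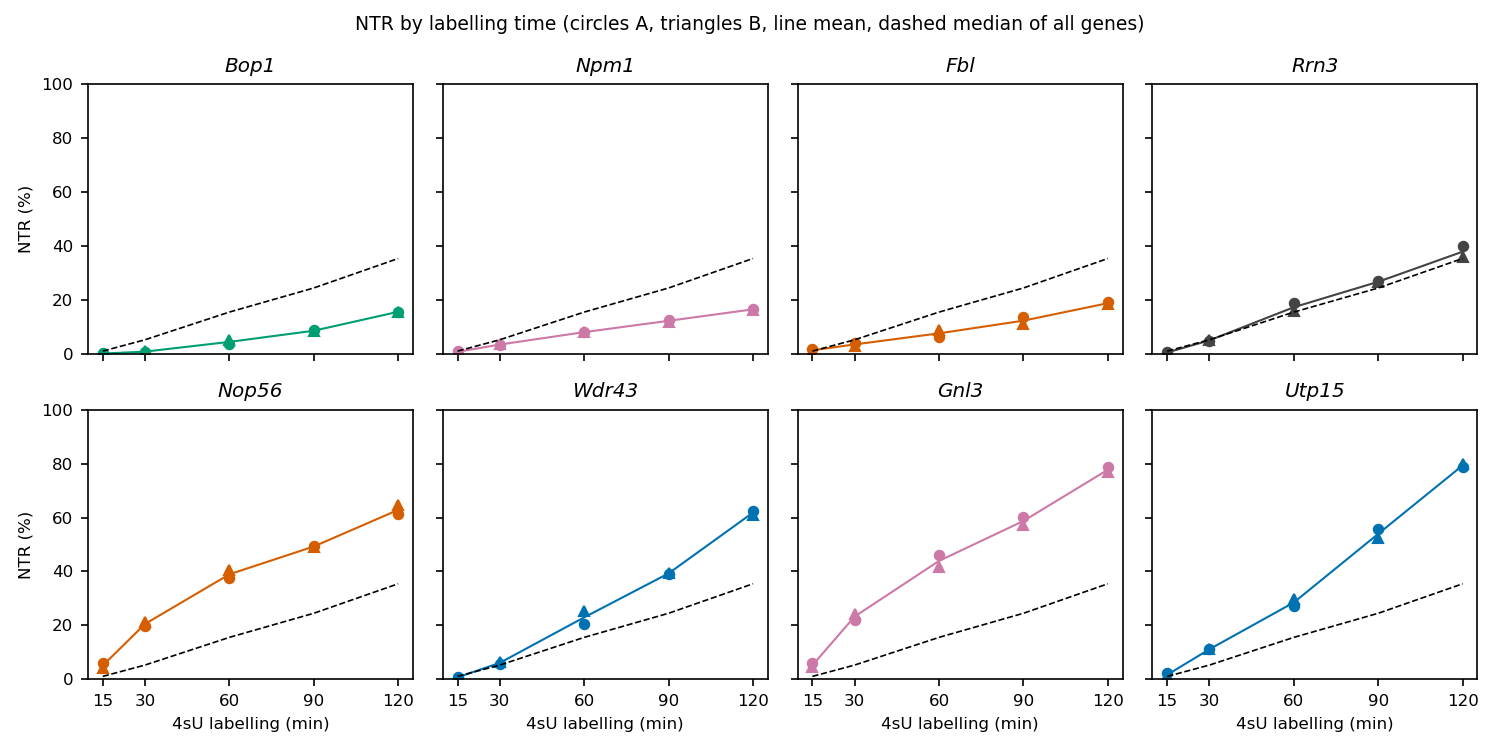
NTR in percent against labelling time in minutes for 8 factors. Circles are replicate A, triangles replicate B, the solid line joins their means and the dashed line joins the medians of all genes. Nop56 and Gnl3 bend away from the dashed line by 30 min, Wdr43 leaves it later and ends near Nop56, and Bop1, Npm1 and Fbl stay below it from 30 min on.

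The apparent half-life was shorter after longer labelling in nearly all factors. It was computed as ln 2 times the labelling time over -ln(1-NTR), and would not depend on the labelling time if the level of a gene and its labelling were steady. Its median over the factors went from 365 min ± 8.18 (SD, n = 2) after 30 min of labelling through 240.4 ± 10.6 (60 min) and 209.8 ± 6.79 (90 min) to 175 ± 5.50 after 120 min, beside 368, 247, 224 and 198 min over all genes. Of the 51 factors with values at both times, 50 had a shorter half-life at 120 than at 30 min, and Utp11 was the exception with 203 min against 197 min. The same count was not made over all genes, whose median also fell.

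The slope of the log2 turnover rate, the inverse of the half-life, was tested with limma against time from 30 to 120 min. It was positive with an adjusted p below 0.05 in 42 of the 51 factors and negative in 0, while 69.1% of the 7830 genes tested passed, 67.6% with a positive and 1.46% with a negative slope. The median slope was 0.70 per hour in the factors and 0.67 in all genes tested. By role, the slope passed in 14 of 14 large subunit factors, 20 of 23 small subunit factors, 2 of 2 polymerase I factors, 3 of 4 abundant proteins, 2 of 4 H/ACA factors and 0 of 3 C/D factors. Whether the roles differ was not tested.

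In the C/D group the half-life of Nop56 was 91.0, 84.5, 92.0 and 84.1 min for labelling of 30, 60, 90 and 120 min, with a slope of 0.04 ± 0.11 per hour (SE; limma adjusted p = 0.746). For Fbl it went from 612 to 399.7 min (adjusted p = 0.0594, limma) and for Nop58 from 335 to 222 min (adjusted p = 0.149, limma). Nop10 and Utp11 had slopes of -0.03 and -0.07, and Imp3, Npm1, Imp4 and Nhp2 of 0.14, 0.23, 0.33 and 0.38, none past the threshold. A p that misses the threshold does not show that these rates were constant.

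The steepest slopes were those of Nol8 at 1.40, Utp18 at 1.34, Wdr43 at 1.25, Utp23 at 1.20, Utp14a at 1.19 and Utp15 at 1.17. For Wdr43 the half-life was 336, 162, 125 and 86.4 min for the same durations (slope 1.25 ± 0.15 per hour, limma adjusted p = 0.00035). The half-life of Utp18, another processome protein, was 574 min at 30 min and 129 min at 120 min (limma adjusted p = 0.000901). Of the 42 calls, 37 held under every alternative that could test the gene, and those of Gnl3, Nol7, Ebna1bp2, Dkc1 and Nop16 were lost under 1 or more.

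The slope varied with the length of the gene on the chromosome. Across the 51 factors, Spearman's rho of the slope with the span from gene start to end was 0.46. It was 0.02 with the share of uridines in the transcript. With the NTR it was 0.35 at 120 min and -0.23 at 30 min, but these NTR values enter the slope itself. These are descriptions over genes that share the same 8 libraries. Imp3 (924 bases), Nop10 (1344 bases) and Nop56 (4884 bases) are among the short genes whose slope did not pass, while Utp3 (1629 bases, slope 0.64), Rrs1 (2048 bases, 0.65) and Nip7 (4055 bases, 0.71) are as short and passed. Utp18 (26524 bases) and Wdr43 (43137 bases) are longer and had steep slopes, but Nop58 (34074 bases) and Utp11 (15441 bases) did not pass. The 7 factors that span a small nucleolar RNA gene on their own strand (Ncl, Nop56, Nop58, Gnl3, Dkc1, Nop53 and Wdr43) had a median slope of 0.39, with a range from 0.04 to 1.25, and the other 44 had 0.74.

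**Figure D3:**
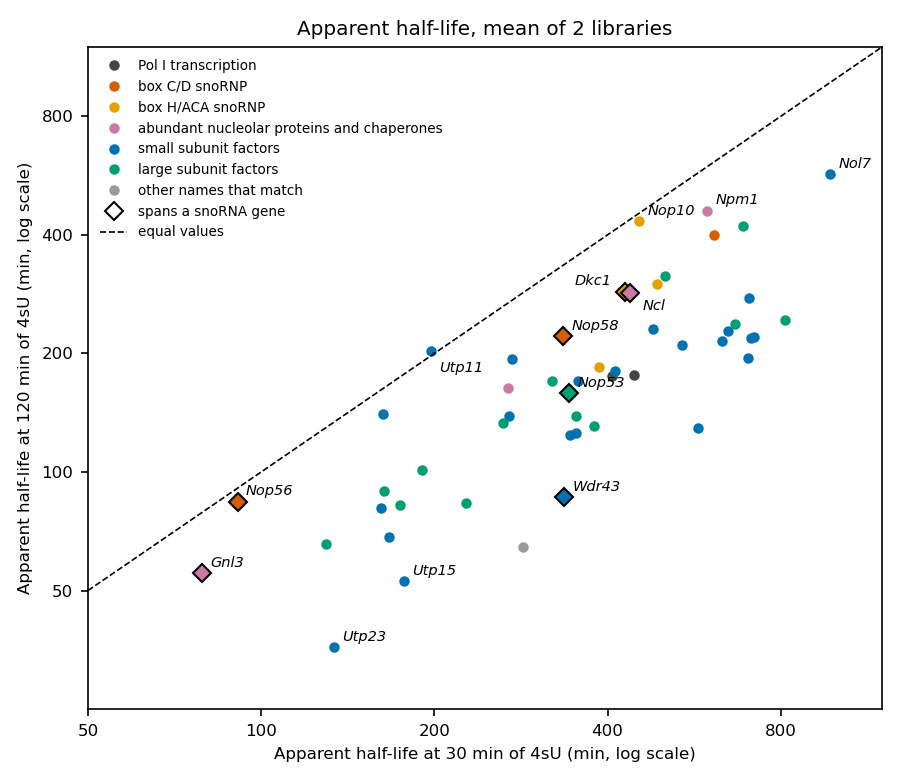
Apparent half-life in minutes at 30 min (x axis) and 120 min (y axis) of 4sU, both on log scales, for the 51 factors with values at both times, each point the mean of 2 libraries. Colours give the role, diamonds mark the 7 factors that span a small nucleolar RNA gene, and the dashed line marks equal values. All points but Utp11 lie below the line, with Nop56 and Nop10 close to it and Wdr43, Utp15 and Utp23 far below.

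Levels of total RNA moved in both directions between 15 and 120 min of labelling, and in the small subunit pathway only falls passed the test. With edgeR's quasi-likelihood test over the 10 labelled libraries, 5 of the 55 factors rose and 12 fell at a Benjamini-Hochberg adjusted p below 0.05. Over all 11526 genes tested, 15.2% rose and 16.9% fell, 32.1% together, so the share among the factors (30.9%) was close to that of all genes. The median log2 fold change was 0.00 over the factors and 0.01 over all genes. In the small subunit pathway 0 of 25 rose and 7 fell, in the large subunit pathway 3 of 15 rose and 3 fell, and among the H/ACA factors 0 of 4 passed. The small subunit count was 0 rises in the reported fit and in all 17 alternatives, with 4 to 7 falls. The split of all factors depended on the scaling: 1 rose and 14 fell when counts were scaled by library size alone, and 10 rose and 9 fell with upper-quartile scaling, which moved the median of all genes to -0.05 and 0.04.

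Every factor called between 15 and 120 min also passed when the level was fitted as a straight line over all 5 durations. There 11 of the 55 factors rose and 13 fell, beside 18.3% and 19.5% of all genes (37.8% together), and the 17 called at 120 against 15 min were all among these 24. With library-size scaling the trend gave 3 rises and 17 falls. Without the 120 min libraries 8 remained past the threshold, with 6 rises and 2 falls, and the falls were Wdr43 and Gnl3.

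The deepest fall was that of Wdr43, part of the UtpA complex that binds the precursor first. The gene lies at chr17:71615895-71659031 (+ strand, GENCODE M21). In the A and B libraries its level was 256 and 279 CPM (15 min), 257 and 276 (30 min), 251 and 251 (60 min), 239.8 and 237 (90 min) and 194 and 191 (120 min), beside 238 and 279 CPM in no4sU. The 120 min libraries were the lowest of the 12 and did not overlap with any other group. The log2 fold change from 15 to 120 min was -0.47 ± 0.04 (SE, edgeR adjusted p = 1.72e-10).

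Utp15 (chr13:98246845-98263041, - strand), of the same complex, had 61.8 and 62.7 CPM at 15 min and 51.8 and 46.6 at 120 min, with the libraries between at 54.2 to 58.5 and no4sU at 54.99 and 60.41. Both 120 min libraries were below all others. Its log2 fold change was -0.35 ± 0.07 (edgeR adjusted p = 7.85e-05). Nol11 (-0.17, edgeR adjusted p = 0.0236) and Utp4 (-0.16, 0.00881) are the other UtpA proteins among the factors, and both fell. With Heatr1 (-0.19, adjusted p = 0.00442) and Wdr75 (-0.16, adjusted p = 0.0115), the UtpA proteins outside the symbol rule, all 6 were lower at 120 than at 15 min in edgeR. The complex was singled out after its values were seen. Nol11 and Utp4 lost their calls under 6 and 3 of the 17 alternatives, among them the fit over all 12 libraries (adjusted p = 0.101 and 0.0622) and without 15 min replicate B (0.139 and 0.132).

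Nol10, a small subunit factor (chr12:17348458-17430095, + strand), had 77.7 and 78.5 CPM at 15 min, 70.5 to 79.7 between 30 and 90 min, 64.3 and 65.4 at 120 min, and 75.8 and 75.4 in no4sU. Nol9, the polynucleotide kinase of large subunit processing (chr4:152039321-152061494, + strand), had 95.6 and 96.4 CPM at 15 min, 89.5 to 96.7 between 30 and 90 min, 82.4 and 81.6 at 120 min, and 96.6 and 93.2 in no4sU. In both genes the 120 min libraries were the lowest of all 12. Their log2 fold changes were -0.27 ± 0.06 and -0.23 ± 0.05 (edgeR adjusted p = 0.000606 and 0.000926). Wdr43, Utp15, Nol10 and Nol9 kept their calls under all 17 alternatives.

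**Figure D4:**
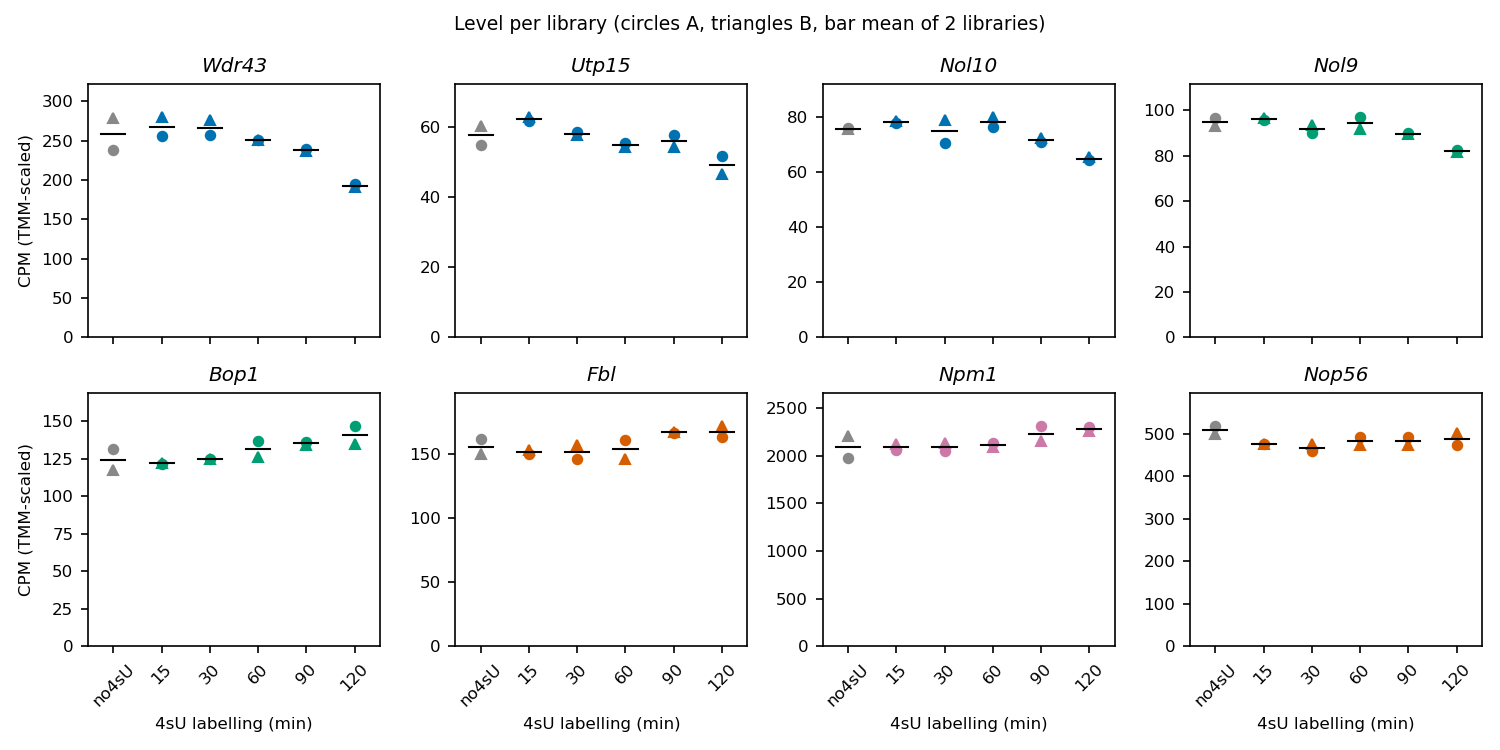
Level in CPM with TMM scaling (y axis, from 0) for 8 factors in the no4sU libraries and at 15 to 120 min of 4sU (x axis). Circles are replicate A, triangles replicate B and bars the mean of both libraries. Wdr43, Utp15, Nol10 and Nol9 have their lowest libraries at 120 min, Bop1, Fbl and Npm1 are higher at 90 and 120 min than at 15 min, and Nop56 stays between 458 and 517 CPM.

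Utp25, also of the small subunit pathway, went from 36.7 and 33.0 CPM at 15 min to 29.0 and 27.8 at 120 min (-0.30 ± 0.08, edgeR adjusted p = 0.00585). The calls of Utp25 were lost without 15 min replicate A (adjusted p = 0.134) or without 120 min replicate B (0.0649). The methyltransferase Rrp8 fell by 0.21 on the log2 scale and Rrp1b by 0.19, both large subunit factors, and Utp18 and Gnl3 fell by 0.16 and 0.11. Rrp8, Utp18 and Gnl3 lost their calls in DESeq2 (adjusted p = 0.0766, 0.158 and 0.101) and Rrp1b without 120 min replicate A or 15 min replicate B (0.0739 in both).

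Of the polymerase I factors, Rrn3 passed with a fall from 15 to 120 min and Ubtf did not pass; the difference between them was not tested. Rrn3 (chr16:13780708-13814839, + strand) had 131 and 138 CPM at 15 min, 128 to 138 between 30 and 90 min, 123 and 116 at 120 min, and 132 and 135 in no4sU. Its 120 min libraries lay below all others, with a log2 fold change of -0.17 ± 0.05 (edgeR adjusted p = 0.00603), and the call was lost without 120 min replicate B (0.106) or 15 min replicate B (0.0936). Ubtf had 184 and 198 CPM at 15 min and 203 and 205 at 120 min (0.10 ± 0.04, edgeR adjusted p = 0.0866). Over the 5 durations Ubtf rose by 0.07 per hour (edgeR adjusted p = 0.016). This call was lost under 5 of 16 alternatives, among them library-size scaling (0.268) and leaving out the 120 min libraries (0.134).

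The largest rise was that of Bop1, the PeBoW protein with the lowest new share. It lies at chr15:76452989-76477277 (- strand) and had 122 and 122 CPM (15 min), 125 and 125 (30 min), 137 and 126 (60 min), 136 and 134 (90 min) and 147 and 135 (120 min), beside 131 and 118 CPM in no4sU. The 120 min libraries lay above both 15 min libraries, and replicate B overlapped with those at 60 and 90 min. The log2 fold change was 0.20 ± 0.05 (edgeR adjusted p = 0.00146), and without 120 min replicate A it was 0.15 (0.0539).

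Npm1 (chr11:33152287-33163206, - strand) went from 2064 and 2119 CPM at 15 min to 2298 and 2265 at 120 min (0.13 ± 0.03, edgeR adjusted p = 0.00293). Fbl (chr7:28169710-28179269, + strand) went from 151 and 153 to 163 and 172 (0.14 ± 0.05, adjusted p = 0.0195, edgeR). In both genes the 120 min libraries lay above the 15 min libraries, and the higher of the no4sU libraries was at 2211 CPM for Npm1 and 162 CPM for Fbl. Rrp1 rose by 0.14 and the large subunit factor Ebna1bp2 by 0.12. With library-size scaling Bop1 was the single rise. Npm1, Fbl, Rrp1 and Ebna1bp2 missed the threshold there, with log2 fold changes of 0.07, 0.09, 0.08 and 0.06 (adjusted p between 0.103 and 0.292, edgeR). Fbl, Rrp1 and Ebna1bp2 also missed it in DESeq2 (adjusted p = 0.0863, 0.0656 and 0.0929). Of the 17 alternatives, Ebna1bp2 lost its call under 7, Fbl and Rrp1 under 6 each and Npm1 under 3. Ncl, the snoRNP scaffold pair and Dkc1 did not pass at 120 against 15 min, with log2 fold changes of 0.07 for Ncl, 0.04 for Nop56, -0.07 for Nop58 and 0.02 for Dkc1.

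Factors with a larger new share tended to have lower fold changes after long labelling. Across the 54 factors, Spearman's rho between the NTR at 120 min and the log2 fold change from 15 to 120 min was -0.50, and -0.64 with the fold change from no4sU. These are descriptions across genes, which share libraries, and the NTR and the count of a gene at 120 min come from the same reads. Neither these correlations nor the split that follows is set beside all genes. They are therefore not shown to be particular to the factors. All 5 factors that rose had an NTR at 120 min of at most 23.3%, and the 12 that fell had at least 30.3%. The trend over the 5 durations did not divide in this way: of its 11 rises, Ubtf (37.8%), Nop16 (38.8%) and Nolc1 (39.9%) had shares within the range of its falls, which began with Nol11 at 30.3%. High shares also occurred without a fall that passed the test, as in Nop56 (62.8%, 0.04), Utp3 (64.2%, 0.03) and Rrs1 (71.9%, -0.06). The log2 fold change also had a rho of -0.39 with the gene span.

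**Figure D5:**
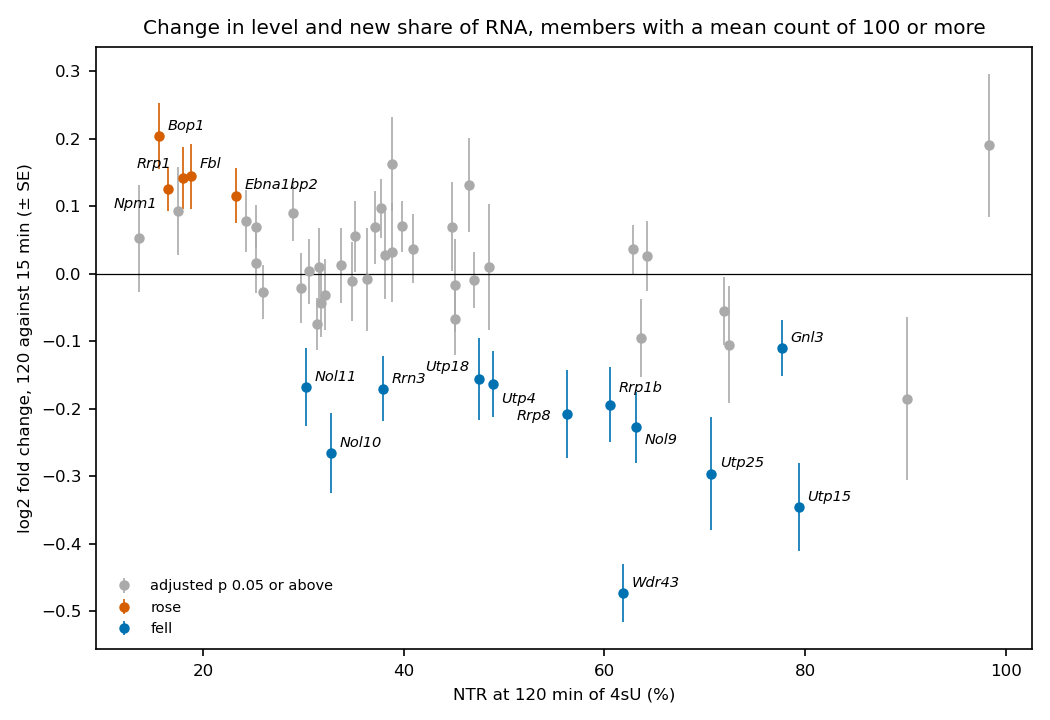
Log2 fold change of the level from 15 to 120 min (y axis, bars ± SE, edgeR) against the NTR at 120 min in percent (x axis) for the 54 factors with a mean count of at least 100. Orange points rose and blue points fell at an adjusted p below 0.05, and grey points did not pass. The rises lie at or below an NTR of 23.3%, the falls at or above 30.3%, and Nop56, Utp3 and Rrs1 are among the grey points on the right.

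The level was also split into new and pre-existing RNA, as NTR times CPM and the remainder. These parts restate the NTR and the level, and are relative to the library total. The pre-existing part at 120 min was 97.5% of that at 15 min for Bop1, 91.7% for Npm1 and 90.8% for Fbl. It was 55.4% for Rrn3, 40.0% for Nop56, 31.9% for Nol9, 27.7% for Wdr43, 21.7% for Gnl3 and 16.6% for Utp15. Nop56 had 452 CPM of older and 23.9 CPM of new RNA at 15 min, and 181 ± 4.25 and 306 ± 24.1 CPM at 120 min (SD, n = 2), so its total hardly moved. Wdr43 went from 266 CPM of older RNA to 73.6 ± 1.20 and gained 119 ± 3.38 CPM of new RNA.

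Against the unlabelled cells, changes among the factors passed the test only at 120 min. All durations were compared with the same 2 no4sU libraries. In edgeR 0 of 55 factors passed at 15, 30, 60 or 90 min, where 0%, 0%, 0.0173% and 1.39% of all 11564 genes passed (0.00865% higher and 0.00865% lower at 60 min, 0.45% and 0.943% at 90 min). At an unadjusted p below 0.05 the counts were 1, 6, 5 and 9 of the 55 factors, beside 618, 670, 895 and 1869 of the 11564 genes. DESeq2 also called 0 factors at each. At 120 min 0 rose and 9 fell, beside 5.43% and 8.78% of all genes (14.2% together): Wdr43 (-0.42), Utp23 (-0.39), Utp25 (-0.37), Nip7 (-0.28), Gnl3 (-0.24), Utp15 (-0.24), Rrp1b (-0.24), Nol10 (-0.22) and Nol9 (-0.21). Of these 9, 7 also fell from 15 to 120 min, and Utp23 and Nip7 did not pass there.

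The 120 min counts leaned on single libraries, and so did some of the fold changes. Gnl3 had 221 and 268 CPM in no4sU A and B and 208 and 207 at 120 min. Leaving out no4sU replicate B gave a log2 fold change of -0.09 (edgeR adjusted p = 0.268), and leaving out A gave -0.37. That of Utp23, with 17.8 CPM ± 1.64 (SD, n = 2) in no4sU and 13.6 ± 2.29 at 120 min, was -0.22 without 120 min replicate B (edgeR adjusted p = 0.393). With either no4sU library left out, more of the factors and more of all genes passed. With either 120 min library left out, fewer of both passed. DESeq2 called 5 factors and library-size scaling 15, all of them falls. Over the 11564 genes they gave 450 and 203 rises and 609 and 1684 falls. Wdr43 was the only one of the 9 to pass under all 18 alternatives (edgeR adjusted p of 0.00048 in the reported fit, and at most 0.0433 over the alternatives). Its no4sU libraries at 238 and 279 CPM did not overlap with those at 120 min. At shorter times the number of factors past the threshold also moved when 1 no4sU library was left out. That of all genes moved too at 15, 30 and 60 min.

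Other genes of the pathway gave similar counts, which were not tested against those of the factors. A list of 62 nucleolar and polymerase I genes outside the symbol rule, such as Heatr1, Wdr36, Ddx21, Nat10 and Polr1a, had 4 rises and 14 falls from 15 to 120 min (29.0%), with a median log2 fold change of -0.04. The trend over time gave 13 rises and 15 falls, and 120 min against no4sU 2 rises and 8 falls. Their median NTR at 120 min was 38.2% over 61 genes, beside 38.1% over the factors, and the turnover rate rose in 47 of the 58 tested and fell in 0.

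In their annotation the factors were compact genes. Their median span was 12752.5 bases, beside 26020.5 over all genes averaging at least 100 reads, while the median transcript was 2916 and 3176 bases and uridine made up 24.0% and 24.5%. An AUUUA pentamer in the 3′ UTR was found in 29 of 54 factors (53.7%) and 69.7% of all genes. The 3′ UTR of the factors was also shorter, with a median of 861.5 against 1112 bases, and the shares were not corrected for this. The NTR at 120 min had a rho of 0.16 with the number of these pentamers and 0.01 with the share of uridines. A small nucleolar RNA gene lay within 7 of the 54 (13.0%) and 2.27% of all genes. Another annotated gene overlapped 24 of the 57, on the opposite strand in all but Utp14b, and 6 of the 17 called at 120 against 15 min were among them (Wdr43, Bop1, Rrp8, Rrp1b, Gnl3 and Nol11). Whether counting used strand is not stated, and the part of such neighbours in these values was not tested.

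Promoters were looked at because Myc with Max is known to bind the E-box CACGTG in genes of this pathway. In the 250 bases before the start, from RefSeq on GRCm38.p6, the motif was searched on both strands, which read alike. It was found in 8 of the 45 factors with a promoter in the table (17.8%), beside 8.97% of 12682 promoters of genes in the expression table. The 8 were Imp4, Nol11, Nop2, Rrn3, Rrp7a, Utp14b, Utp18 and Utp25. Over all 27025 genes with a RefSeq promoter the share was 6.86%. The promoters of the 4 factors whose E-box lies nearest to the start, at 20 to 60 bases, were picked with the level changes known. They are shown 5′ to 3′ along the gene, with CACGTG in capitals. Rrn3, Nol11 and Utp18 fell from 15 to 120 min, and the fourth, the methyltransferase gene Nop2, had a log2 fold change of -0.01. Of the others with an E-box, Utp25 fell, and Imp4, Rrp7a and Utp14b did not pass. The calls of Nol11 and Utp18 were lost under 6 and 7 of 17 alternatives. A link between the motif and the falls was not tested.
Rrn3, chr16:13780449-13780698, + strand: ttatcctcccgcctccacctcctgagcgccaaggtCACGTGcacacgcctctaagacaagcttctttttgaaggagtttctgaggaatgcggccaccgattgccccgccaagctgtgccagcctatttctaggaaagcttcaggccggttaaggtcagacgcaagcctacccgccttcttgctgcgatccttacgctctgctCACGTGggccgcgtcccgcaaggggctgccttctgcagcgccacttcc
Nol11, chr11:107189382-107189631, - strand: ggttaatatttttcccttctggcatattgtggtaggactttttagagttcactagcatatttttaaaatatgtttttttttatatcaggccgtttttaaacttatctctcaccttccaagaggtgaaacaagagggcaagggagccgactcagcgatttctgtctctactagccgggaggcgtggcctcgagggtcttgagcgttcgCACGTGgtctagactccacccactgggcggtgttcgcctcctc
Utp18, chr11:93885767-93886016, - strand: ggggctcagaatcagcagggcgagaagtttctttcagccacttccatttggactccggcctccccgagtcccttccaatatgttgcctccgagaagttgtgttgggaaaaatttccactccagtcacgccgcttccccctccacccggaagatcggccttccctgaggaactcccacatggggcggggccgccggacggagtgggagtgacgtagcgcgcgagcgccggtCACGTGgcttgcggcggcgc
Nop2, chr6:125131633-125131882, + strand: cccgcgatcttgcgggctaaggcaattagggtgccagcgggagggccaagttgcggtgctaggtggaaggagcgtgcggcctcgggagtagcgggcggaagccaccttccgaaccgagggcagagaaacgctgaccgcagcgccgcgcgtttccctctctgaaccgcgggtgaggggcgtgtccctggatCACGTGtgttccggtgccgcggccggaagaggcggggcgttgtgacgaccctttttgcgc
The E-box of Rrn3 lies 48 bases before the start, with another at 215, that of Nol11 at 43, that of Utp18 at 20 and that of Nop2 at 60. A match is a stretch of letters and says nothing of binding, which was not measured here.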

How the data were processed

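SLAM-seq libraries of NIH-3T3 cells, 6 groups of 2, were analysed from a single deposited table of 17419 genes, with groups and replicate letters taken from the sample titles and 0 columns of other samples. The authors deposited estimated counts per gene and library, not scaled, of which 20.4% were not whole (tolerance 1e-06), and these were rounded for the tests. The authors deposited the NTR as a fraction, per the file headers as a posterior maximum (used here), a mean and 0.05 and 0.95 quantiles, which span a 90% interval. The deposited alpha and beta, each a score, were not used. The deposited gene length gave levels per kilobase. The submitters' processing notes name cutadapt, Bowtie2 2.3.0 and STAR 2.7.10b, with no role. Which genome build, annotation, counting tool and strand setting the authors used was not given in the sources used here.

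Levels were CPM with TMM library sizes. Counts were tested with edgeR 4.0.16 (filterByExpr, TMM, quasi-likelihood, R 4.3.3), 120 against 15 min and the trend over the 10 labelled libraries, and each duration against no4sU over all 12, with p adjusted over all genes tested and a threshold of 0.05. DESeq2 1.42.0 was the other tool. The slope of the log2 turnover rate was tested with limma 3.58.1 over genes averaging at least 100 reads with an NTR from 0.01 to 0.99 in all 8 libraries from 30 to 120 min. Each SE from edgeR was obtained as the absolute log2 fold change divided by the square root of F. For the rate slope, the SE was the absolute value of the slope divided by limma's t. Scripts were tested on simulated data. Gene locations and features came from GENCODE M21 (GRCm38), promoters from RefSeq (45 of 57 factors matched). Python 3.11.15 with pandas 2.3.3 and matplotlib 3.10.9 was used.

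The factors, roles, the list of 62 pathway genes and the tests were chosen with earlier results of these data known. Values are given for 8 chosen factors (Ncl, Npm1, Fbl, Nop56, Nop58, Dkc1, Rrn3 and Ubtf), the 5 highest and 5 lowest in NTR at 120 min, up to 10 rises and 10 falls at 120 against 15 min, and factors that pass that test and the trend. Others were named to show a complex, a rate or an uncertainty after their values were seen. Alternatives were other scalings, filters, tools, fits, count minima, the posterior mean, a replicate block and leaving out each library. The marker genes Epcam, Myod1 and Sox2 were not analysed here.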

Additional observations from a re-analysis of the deposited data

How the results depend on the processing

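Counts of factors past the threshold depended on the fit and on single libraries, and for these the cause was not tested. At 120 against 15 min the 17 calls became 10 with DESeq2 and 8 in the fit over all 12 libraries, and 9 to 17 when 1 library was left out. For the trend the 24 calls became 8 without the 120 min libraries, which uses fewer samples, and 15 to 25 with 1 library left out, the lowest without 120 min replicate B. At 120 min against no4sU the 9 calls became 5 with DESeq2, 1 in the fit over those 2 groups only, 15 with library-size scaling and 1 to 18 with 1 library left out. Against no4sU, leaving out 1 library gave 0 to 4 calls (15 min), 0 to 9 (30 min), 0 to 3 (60 min) and 0 to 8 (90 min). At 90 min, library-size scaling gave 2 and no filter on low counts 3. The rate trend gave 27 calls among 30 factors at a mean count of at least 1000, beside 42 of 51, and 39 to 44 with 1 library left out.

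Restricting to a mean count of at least 1000 gave median NTR of 4.95%, 14.9%, 24.1% and 33.6%, and half-lives of 404, 258, 226 and 203 min, for 30, 60, 90 and 120 min of labelling. With the posterior mean the values at 30 min were 5.83% and 346.5 min. At 15 min, where most NTR are near 0, the median half-life was 529 min for NTR from 0.01 to 0.99 and 1020 min for all NTR above 0.

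The rate slope of Nol7, which passed at 0.48, was -0.06 with the posterior mean as NTR (limma adjusted p = 0.769). The other sign changes given here are in levels, in factors that did not pass, and are not a full list over all factors. With library-size scaling the log2 fold change from 15 to 120 min was -0.04 for Dkc1, -0.0051 for Nol7 and -0.022 for Nop56, and the trend -0.021 for Dkc1 and -0.0073 for Nop56. With 1 library left out, the fold change ran from -0.017 to 0.049 for Dkc1, with -0.012 without 120 min replicate A and its lowest value without 15 min replicate B. It ran from -0.012 (without 120 min replicate B) to 0.080 for Nop56. The trend of Dkc1 ran from -0.0021 (without 15 min replicate B) to 0.034, and that of Nol7 was -0.0046 without the 120 min libraries. The cause was not tested. Over single factors, 766 values kept direction and side of the threshold, 101 lost and 14 gained a call.

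The replicate letters share only a name: deviations from the group means had correlations of -0.042 to 0.068 over 15 pairs of groups, 0 of them over 0.1. With a replicate block the calls were 17 at 120 against 15 min, 24 for the trend, 9 at 120 min against no4sU and 41 for the rate. With 2 libraries a group, these tests can miss small changes. Outliers could not be tested in groups of 2.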
